A study of Homo sapiens with 26 samples.

Results

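The hypoxia and glycolysis genes are a set of 38 human genes, taken by symbol from a fixed list, out of 19128 genes in the knockout tables and 19117 in the parental table. They comprise 16 glycolytic enzymes, 3 transporters of glucose and lactate, 4 regulators of glycolytic and pyruvate flux, 4 subunits or oxygen-sensing hydroxylases of the hypoxia-inducible factor (HIF) pathway and 11 other genes known to respond to low oxygen. All 38 symbols were found in every table.

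RNA was measured in 4 human small cell lung cancer cell lines, NCI-H526, COR-L311, NCI-H211 and NCI-H1048, that express POU2F3, a POU-domain transcription factor of tuft cells. Each line was infected by lentivirus with the control guide RNA sgNeg or with 1 of 2 guides against POU2F3 (sgPOU2F3e10.1 and e10.2), and was harvested on day 4 (NCI-H1048 and NCI-H211) or on day 5 (NCI-H526 and COR-L311). A further 14 libraries came from exponentially growing, uninfected lines, namely these 4 and DMS114, DMS79, NCI-H128, NCI-H146, NCI-H446, NCI-H510, NCI-H524, NCI-H69, NCI-H82 and NCI-H889. NCI-H1048 was grown in the defined medium HITES, NCI-H128 in RPMI with a raised serum content, and the other lines in RPMI with serum or in HITES, without a record of which line had which. The labels name neither the source of Cas9 nor a cloning step. No oxygen level or hypoxic treatment is given in the labels.

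Glycolysis splits glucose into pyruvate, which is either reduced to lactate or passed to the mitochondrion. Under low oxygen, prolyl hydroxylases of the EGLN family no longer mark the HIF alpha subunits for degradation. The stabilised subunits then bind DNA with their partner ARNT at elements with the core ACGTG and raise transcription of glucose transporters, glycolytic enzymes, PDK1, BNIP3, VEGFA and CA9. HIF1A is controlled mainly at the protein level, which RNA does not show. MYC drives many of the glycolytic genes as well, through the E-box CACGTG, which contains the same core.

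The sequence upstream of a start site is 1 of the places where such factors can bind. For members described here 5 stretches are shown, each with at least 1 match to the motifs searched. They are RefSeq sequence, build GRCh38.p14, written 5′ to 3′ on the strand of the gene, and they cover the part of the 250 bases before the start that no GENCODE v29 exon overlaps. Capitals mark ACGTG or its reverse complement CACGT, and in EGLN3 the octamer ATGCAAAT that POU factors recognise.
HK2, chr2:74834920-74835169, plus strand: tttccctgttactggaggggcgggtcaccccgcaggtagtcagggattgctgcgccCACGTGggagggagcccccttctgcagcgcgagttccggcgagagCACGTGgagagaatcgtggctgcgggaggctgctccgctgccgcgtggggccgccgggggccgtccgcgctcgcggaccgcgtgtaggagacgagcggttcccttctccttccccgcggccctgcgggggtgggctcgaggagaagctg
LDHA, chr11:18394313-18394387, plus strand: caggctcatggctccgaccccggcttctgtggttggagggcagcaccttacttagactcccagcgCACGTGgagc
PGK1, chrX:78103998-78104173, plus strand: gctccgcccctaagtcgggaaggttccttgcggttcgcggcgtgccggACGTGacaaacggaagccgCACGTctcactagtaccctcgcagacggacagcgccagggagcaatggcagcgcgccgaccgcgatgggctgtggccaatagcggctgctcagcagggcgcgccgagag
BNIP3, chr10:131982014-131982173, minus strand: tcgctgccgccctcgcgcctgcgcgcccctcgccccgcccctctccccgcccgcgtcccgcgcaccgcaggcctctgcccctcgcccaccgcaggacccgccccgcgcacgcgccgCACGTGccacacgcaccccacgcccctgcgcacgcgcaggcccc
EGLN3, chr14:33951082-33951324, minus strand: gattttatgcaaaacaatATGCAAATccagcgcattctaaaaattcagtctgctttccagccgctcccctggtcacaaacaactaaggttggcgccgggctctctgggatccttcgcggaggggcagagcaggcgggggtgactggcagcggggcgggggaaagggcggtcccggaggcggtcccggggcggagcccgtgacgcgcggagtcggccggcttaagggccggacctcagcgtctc
HK2 held 2 copies of the full palindrome CACGTG in this stretch, BNIP3 and LDHA 1 each, and PGK1 none, its 2 cores lying apart. HK2 and LDHA have another annotated start as well, and the stretch shown is from the start with the most matches for each. Over the whole 250 bases before the start and on both strands, ACGTG was present at 23 of 64 starts of 34 members (35.9%), against 6501 of 35116 starts of all genes (18.5%). CACGTG was present at 12.5% of the members' starts and 6.34% of all starts, and these are included in the count for ACGTG. A gene with several starts is counted at each of them, and some of these stretches overlap. Counted by gene, 20 of 34 members (58.8%) held ACGTG at any start, against 21.7% of all genes. The number of starts per gene was not matched. The octamer was present at 2 starts, of EGLN3 and PFKP (3.12%, against 1.63% of all starts). PFKFB4 held neither ACGTG nor the octamer in the 250 bases. Sequence beyond these bases was not searched, so a motif missing here may lie elsewhere. Base composition was not matched between the members and the other genes, and a match is a description of the letters only.

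Values are deposited FPKM (fragments per kilobase of transcript, scaled to a common number of mapped fragments), a level per transcript length. The knockout tables hold 1 column per arm of a line, so the libraries of both POU2F3 guides are already combined and the spread between guides is not known. The replicate here is the line, with n = 4. POU2F3 itself stood at 40.7% of control for NCI-H526, 80.4% for COR-L311, 6.95% for NCI-H211 and 30.7% for NCI-H1048. A cut in a gene need not lower its mRNA, so these percentages are no measure of how many cells carried a disrupted gene. Estimated depth was 9.51 to 15.2 M fragments for sgNeg, 18.1 to 29.6 M for the combined sgPOU2F3 columns and 9.72 to 31.1 M for the parental libraries. The 8 knockout columns each lay closest to the parental library of their own line. Of the small cell markers, EPCAM was present in all 8 knockout columns (99.4 to 533 FPKM), while CHGA and SYP were near 0 in NCI-H1048 and NCI-H211. Other small cell markers differed between sgNeg and sgPOU2F3. In NCI-H211, YAP1 was 1.33 against 56.0 FPKM and KRT18 261 against 1064. KRT18 was also higher in NCI-H1048 (125 against 190) but lower in COR-L311 (655 against 391) and NCI-H526 (157 against 134). NEUROD1 was 0.173 against 13.8 FPKM in COR-L311 and 0.107 against 11.6 in NCI-H526. Among the parental lines, DMS114 had 8.84 FPKM of EPCAM and 511.64 FPKM of the fibroblast collagen COL3A1, and EPCAM was also low in NCI-H446 (3.29 FPKM) and NCI-H82 (0.89 FPKM). The 6 fibroblast markers summed to 0.129 to 8.43 FPKM in sgNeg and 0.835 to 16.3 FPKM in sgPOU2F3, the highest value being in NCI-H211 and due mostly to LUM. The 6 blood markers summed to 1.16 to 6.503 FPKM in sgNeg and 1.27 to 7.195 FPKM in sgPOU2F3. HBB was at 0 in every column, CD68 was 6.37 against 6.75 FPKM in COR-L311, and LYZ was 0.514 against 6.04 FPKM in NCI-H211. The 4 endothelial markers summed to 1.59 FPKM or less in the knockout columns. In the parental libraries they reached 64.3 FPKM, due mostly to CDH5 in NCI-H446 (63.8 FPKM). The part of these markers in the results was not tested.

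The knockout comparison asked what the loss of POU2F3 does to these genes. In the sgPOU2F3 columns HK2, PFKFB4, PDK1, BNIP3 and ALDOC were lower than in sgNeg in each of the 4 lines, at 0.520 to 0.688 times the control on average over the lines, and NDRG1 was higher, at 2.34 times the control on average. No member passed an adjusted p of 0.05 in limma's test over 12387 genes, where 2 genes did (0.0161%). The smallest adjusted p of a member was 0.232, for HK2. Without adjustment, 14 of the 37 members tested were lower at p of 0.05 (37.8%), where 7.08% of all genes were, and 1 member was higher, where 4.67% were. The direction was the same in all lines for 14 members that were lower (all genes 12.9%) and 2 that were higher, HIF1A and NDRG1 (all genes 9.81%), and with quantile normalization 1 member was. The median log2 ratio of the members was -0.27, against -0.02 over all genes tested. SLC2A3 reached 1 FPKM in 2 of 8 columns, fewer than the 4 required, and was not tested. Without COR-L311 or without NCI-H526, 8 members were lower at an unadjusted p of 0.05, and without NCI-H211 18 were. Without NCI-H211, 23 members were lower in every remaining line, and the genes past the adjusted threshold fell to 0 with any line left out. Shares over all genes were not computed with a line left out, and with fewer lines a shared sign is more common in any gene. In bulk RNA, fewer cells of a kind and less RNA per cell cannot be told apart.

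**Figure D1:**
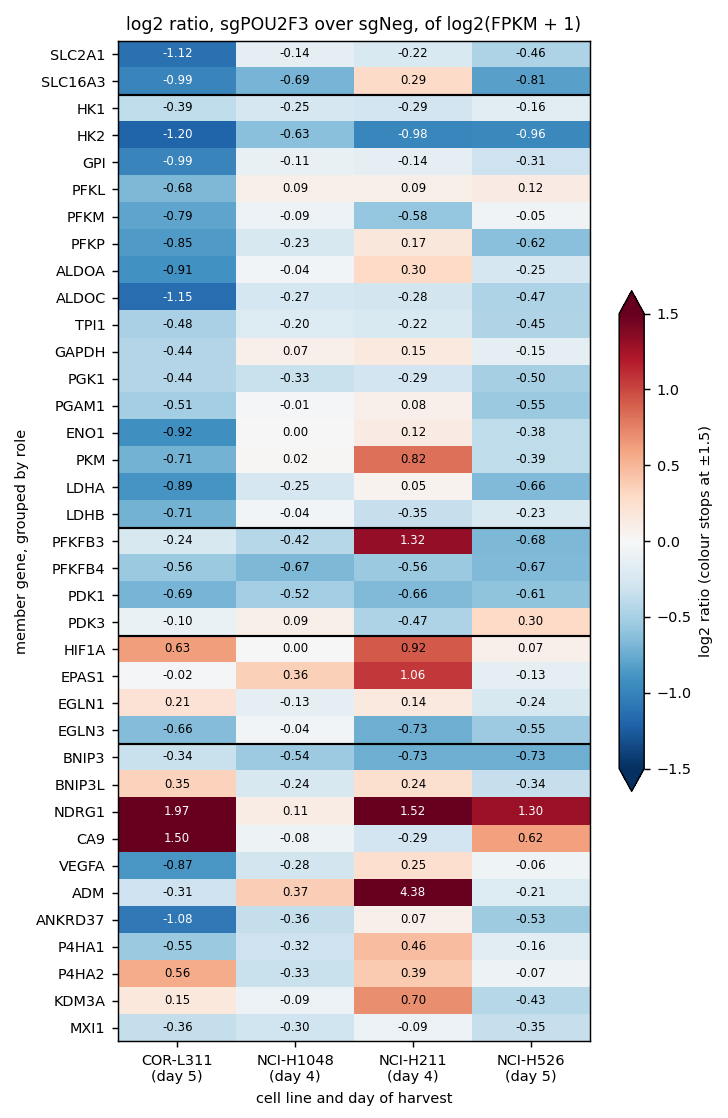
Log2 ratio of sgPOU2F3 over sgNeg, on log2(FPKM + 1), for the 37 members tested (rows, grouped by role from transport at the top to hypoxia-response genes at the bottom) in each line (columns), with red for higher and blue for lower after knockout and the value printed in each cell. HK2, PFKFB4 and PDK1 are blue in every line, NDRG1 is above 1 in 3 of 4, and NCI-H211 has the most red cells.

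The ratios were also taken line by line. The median log2 ratio was -0.35 for NCI-H526, -0.55 for COR-L311, 0.08 for NCI-H211 and -0.14 for NCI-H1048, where the medians over all genes were all within 0.04 of 0. At any size, 32, 30, 16 and 28 members were lower in that order of lines (all genes 53.4%, 51.6%, 53.4% and 50.4%). In COR-L311, 17 members were at least 1.5-fold lower (45.9%, all genes 10%) and 3 were higher (all genes 8.88%). In NCI-H526, 8 were lower (21.6%, all genes 2.49%) and 2 higher (all genes 3.93%). In NCI-H1048, 3 were lower (all genes 2.47%) and 0 higher (all genes 2.66%). In NCI-H211, 4 were lower (10.8%, all genes 11.7%) and 7 higher (18.9%, all genes 10.1%). A single line has 1 value per arm, so these counts carry no test.

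Among the transporters, SLC2A1 (GLUT1), which carries glucose into the cell, stood in the sgNeg against the sgPOU2F3 column at 84.2 against 60.8 FPKM for NCI-H526, 27.0 against 11.9 FPKM for COR-L311, 30.3 against 25.8 FPKM for NCI-H211 and 19.4 against 17.5 FPKM for NCI-H1048. It was lower in all 4 lines, with most of the difference in COR-L311 (mean ratio on the log2 scale -0.49 ± 0.44, SD, n = 4 lines; limma adjusted p = 0.408), and without that line the mean was -0.28. SLC16A3 (MCT4), the lactate exporter, was lower in 3 lines, for example 7.10 against 3.08 FPKM in COR-L311 and 19.4 against 10.6 in NCI-H526. In NCI-H211 it was higher, at 3.56 against 4.55 FPKM. SLC2A3 (GLUT3) stayed at or below 1.05 FPKM in all columns.

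All 16 glycolytic enzymes had a mean ratio below 0 (all genes 6596 of 12387), with a median of -0.33. Of the enzymes, 8 were lower in every line (all genes 12.9%). None passed the adjusted threshold. The enzymes' median was -0.38 for NCI-H526, -0.75 for COR-L311, -0.05 for NCI-H211 and -0.10 for NCI-H1048. As a share of all FPKM in a column, the 16 enzymes held 0.917% in sgNeg and 0.637% in sgPOU2F3 of COR-L311, and 1.79% and 1.53% in NCI-H526. The share was 1.69% and 1.59% in NCI-H1048 and 1.24% and 1.34% in NCI-H211, where the order was the opposite.

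HK2, the inducible hexokinase that commits glucose to the pathway, was the member with the lowest mean ratio. It measured 17.3 against 8.41 FPKM for NCI-H526, 14.3 against 5.67 FPKM for COR-L311, 26 against 12.7 FPKM for NCI-H211 and 11.2 against 6.89 FPKM for NCI-H1048, control column first as in all pairs that follow. Every line was lower, and the log2 ratio averaged -0.94 ± 0.23 (SD, n = 4 lines; limma adjusted p = 0.232). HK1, the hexokinase present in most tissues, was lower by less, with ratios of -0.39 to -0.16 and a mean of -0.27. ALDOC, the aldolase isoform of brain, measured 54.0 against 38.8 FPKM for NCI-H526, 101 against 45.0 FPKM for COR-L311, 14.6 against 11.8 FPKM for NCI-H211 and 43.3 against 35.8 FPKM for NCI-H1048. It was lower in all 4 lines, with the largest difference in COR-L311 (mean -0.54 ± 0.41, SD, n = 4 lines; limma adjusted p = 0.397), and without that line the mean was -0.34. Its paralog ALDOA, more abundant in every line, was higher in NCI-H211 (372 against 458 FPKM) and lower in the other 3 lines.

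In the triose and lower part of the pathway, mean ratios were smaller in size than those of HK2 and ALDOC. PGK1, which makes ATP from 1,3-bisphosphoglycerate, had ratios of -0.50, -0.44, -0.29 and -0.33 for NCI-H526, COR-L311, NCI-H211 and NCI-H1048 (limma adjusted p = 0.388), and TPI1 -0.45, -0.48, -0.22 and -0.20. GAPDH, the most abundant member, lay between -0.15 and 0.15 in 3 lines and at -0.44 in COR-L311. LDHA, which reduces pyruvate to lactate, measured 569 against 360 FPKM for NCI-H526, 461 against 249 FPKM for COR-L311, 278 against 288 FPKM for NCI-H211 and 335 against 281 FPKM for NCI-H1048. PKM, the last enzyme before pyruvate, was lower in COR-L311 (474 to 290 FPKM) and NCI-H526 (751 to 574) and higher in NCI-H211 (215 to 381). The 3 phosphofructokinases did not share a pattern, since PFKL was above 0 in 3 lines, PFKM below 0 in all 4 and PFKP above 0 in NCI-H211. GAPDH, PGK1, PGAM1, ENO1, LDHA and TPI1 have processed copies elsewhere in the genome, and how shared fragments were counted is not given in the sources used here, so their levels are uncertain. PGAM1, at 11.2 to 28.5 FPKM, lay far below its neighbours in the pathway.

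Of the regulators of flux, PFKFB4 and PDK1 gave the most even differences of all members tested. PFKFB4, which makes the activator of phosphofructokinase, measured 17.1 against 10.4 FPKM for NCI-H526, 10.0 against 6.51 FPKM for COR-L311, 4.62 against 2.81 FPKM for NCI-H211 and 16.5 against 10.0 FPKM for NCI-H1048. The log2 ratios lay between -0.67 and -0.56 (mean -0.61 ± 0.06, SD, n = 4 lines; limma adjusted p = 0.312). PDK1, the kinase that shuts pyruvate out of the citric acid cycle, measured 30.0 against 19.4 FPKM for NCI-H526, 12.8 against 7.56 FPKM for COR-L311, 12.1 against 7.29 FPKM for NCI-H211 and 14.2 against 9.59 FPKM for NCI-H1048. Its ratios lay between -0.69 and -0.52 (mean -0.62 ± 0.07, SD, n = 4 lines; limma adjusted p = 0.312). The paralogs did otherwise: PFKFB3 was lower in 3 lines and higher in NCI-H211 (5.99 to 16.5 FPKM, ratio 1.32), and PDK3 had ratios of -0.47 to 0.30.

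**Figure D2:**
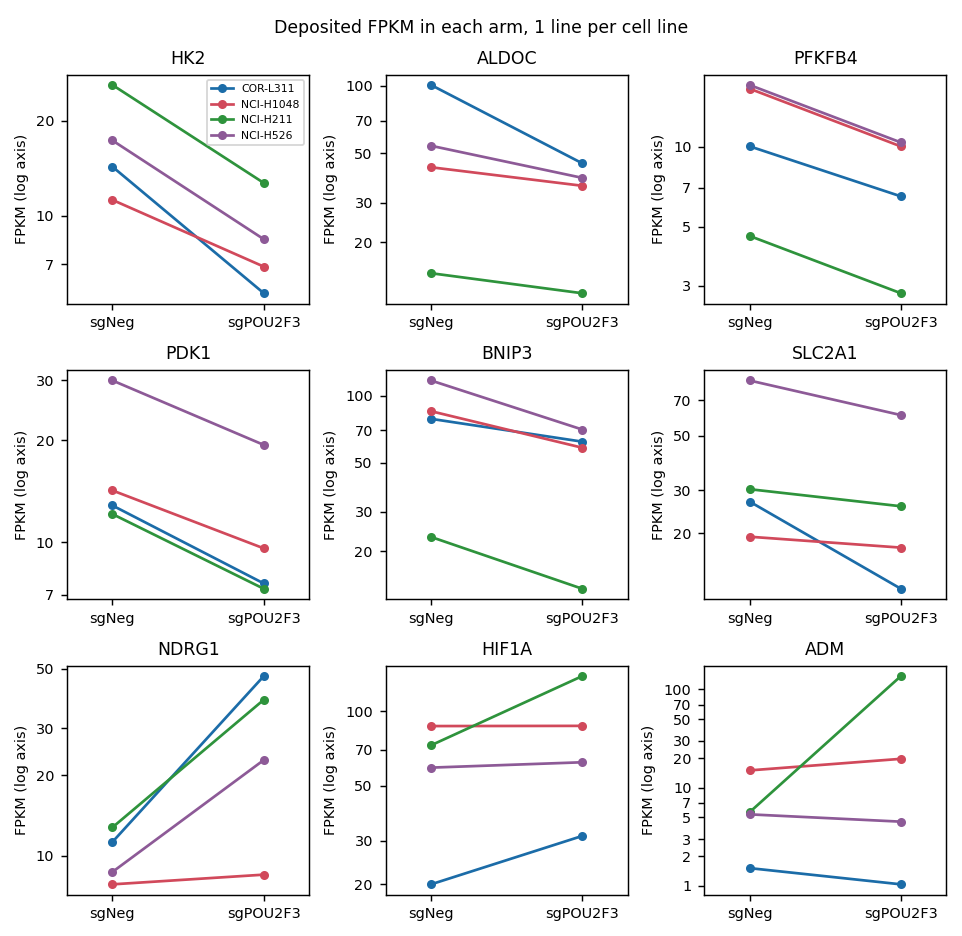
Deposited FPKM (log axis) in the sgNeg and sgPOU2F3 columns of each line, joined by 1 coloured line per cell line, for 9 members. HK2, ALDOC, PFKFB4, PDK1, BNIP3 and SLC2A1 slope downward in all 4 lines, NDRG1 slopes upward with NCI-H1048 nearly flat, and ADM departs in NCI-H211 alone, from 5.62 to 137 FPKM.

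HIF1A, the oxygen-regulated HIF subunit, was not lower in any line. It stood at 59.2 against 62.2 FPKM for NCI-H526, 20.0 against 31.4 FPKM for COR-L311, 72.9 against 139 FPKM for NCI-H211 and 87.2 against 87.3 FPKM for NCI-H1048. NCI-H1048 and NCI-H526 were nearly level and the other lines were higher (mean 0.40 ± 0.44, SD, n = 4 lines; limma adjusted p = 0.433), and without NCI-H211 the mean was 0.23. EPAS1 (HIF-2 alpha) was low throughout, at 0.337 against 0.220 FPKM for NCI-H526, 0.0489 against 0.0351 FPKM for COR-L311, 1.03 against 3.21 FPKM for NCI-H211 and 2.39 against 3.34 FPKM for NCI-H1048. EGLN1 (PHD2), the main oxygen sensor, had ratios from -0.24 to 0.21. EGLN3 (PHD3), itself a HIF target, measured 134 against 91.6 FPKM for NCI-H526, 46.8 against 29.3 FPKM for COR-L311, 59.5 against 35.4 FPKM for NCI-H211 and 18.8 against 18.2 FPKM for NCI-H1048. It was lower in 3 lines and almost level in NCI-H1048 (mean -0.49 ± 0.31, SD, n = 4 lines; limma adjusted p = 0.388).

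The 11 other hypoxia-response genes went both ways, with 5 mean ratios below 0, 6 above, and a median of 0.00. BNIP3, a mitochondrial receptor for mitophagy, measured 117 against 70.5 FPKM for NCI-H526, 78.9 against 62.2 FPKM for COR-L311, 23.2 against 13.5 FPKM for NCI-H211 and 85.4 against 58.4 FPKM for NCI-H1048. It was lower in all 4 lines (mean -0.58 ± 0.19, SD, n = 4 lines; limma adjusted p = 0.312). Its relative BNIP3L had ratios of -0.34, 0.35, 0.24 and -0.24 for NCI-H526, COR-L311, NCI-H211 and NCI-H1048. MXI1, a MAX partner that opposes MYC, was lower in all 4 lines by 0.09 to 0.36 on the log2 scale.

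NDRG1, a gene induced both by low oxygen and by differentiation, was the member with the highest mean ratio. Its levels were 8.69 against 22.8 FPKM for NCI-H526, 11.2 against 47.1 FPKM for COR-L311, 12.8 against 38.4 FPKM for NCI-H211 and 7.81 against 8.49 FPKM for NCI-H1048. It was clearly higher in 3 lines and hardly in NCI-H1048 (mean 1.22 ± 0.80, SD, n = 4 lines; limma adjusted p = 0.388). ADM, which encodes the vessel-dilating peptide adrenomedullin, measured 5.36 against 4.51 FPKM for NCI-H526, 1.52 against 1.04 FPKM for COR-L311, 5.62 against 137 FPKM for NCI-H211 and 15.01 against 19.7 FPKM for NCI-H1048. NCI-H211 alone gave the mean of 1.06, which was -0.047 without it. CA9, a carbonic anhydrase at the cell surface, measured 0.177 against 0.809 FPKM for NCI-H526, 8.64 against 26.3 FPKM for COR-L311, 1.57 against 1.10 FPKM for NCI-H211 and 0.483 against 0.407 FPKM for NCI-H1048. Only in COR-L311 was it above 2 FPKM in either arm (mean 0.44 ± 0.81, SD, n = 4 lines; limma adjusted p = 0.586), and without that line the mean was 0.083. ANKRD37, a small HIF target, measured 4.53 against 2.83 FPKM for NCI-H526, 5.71 against 2.19 FPKM for COR-L311, 0.363 against 0.432 FPKM for NCI-H211 and 3.46 against 2.49 FPKM for NCI-H1048 (mean -0.47 ± 0.47, SD, n = 4 lines; limma adjusted p = 0.435), with a mean of -0.27 without COR-L311. VEGFA, the angiogenic growth factor, was lower in COR-L311 (55.9 to 30.2 FPKM) and between -0.28 and 0.25 on the log2 scale in the other lines. P4HA1, P4HA2 and KDM3A, which are oxygen-dependent hydroxylases and a demethylase, had ratios above 0 in NCI-H211 (0.46, 0.39 and 0.70) and below 0 in NCI-H1048 and NCI-H526.

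Genes of the same pathways outside the set were examined as fixed lists, chosen with earlier results of these data known. The genes named in this paragraph are those with the smallest p of their list in limma's knockout test, so they are not typical of it. Over all genes tested, 12.9% were lower and 9.81% higher in every line. Of 27 other hypoxia-response genes tested, 6 were lower and 1 higher in every line, with a median mean ratio of -0.10 and 0 past the adjusted threshold. The mean ratio was below 0 for 17 of them and above 0 for 10. FAM162A, AK4 and STC2 were among the lower ones, at means of -0.62 ± 0.11, -0.79 ± 0.25 and -0.74 ± 0.32 (SD, n = 4 lines; smallest limma adjusted p = 0.281). Of 11 other HIF pathway components, 1 was lower and 2 were higher in every line. The coactivator CREBBP had a mean of 0.53, and the hydroxylase EGLN2 -0.22. Of 17 other isoforms of the enzymes and transporters, 1 was lower and 3 were higher in every line. None of these genes passed the adjusted threshold.

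On the oxidative side of glucose use, of 21 respiratory chain genes 13 were lower in every line, 0 were higher, and the median was -0.19. Of 16 citric acid cycle genes, 5 were lower in every line, with a median of -0.16. The pyruvate dehydrogenase list gave 3 lower and 2 higher of 10, the pentose phosphate list 1 lower of 7, the serine synthesis list 1 lower of 6, and the mitophagy list 1 higher of 6, each count being over all 4 lines. The shares over all genes tested were 12.9% lower and 9.81% higher. The 14 proliferation genes had medians of -0.42, -0.33, -0.83 and -0.19 for NCI-H526, COR-L311, NCI-H211 and NCI-H1048, and 9 were lower in every line. None of these genes passed the adjusted threshold either. In NCI-H211 their median was thus far below 0 while that of the hypoxia and glycolysis genes was 0.08. MYC measured 484 against 160 FPKM for COR-L311, 326 against 200.2 for NCI-H211 and 194 against 132 for NCI-H1048, and was near 0 in NCI-H526, where MYCN measured 855 against 588 FPKM. The part of MYC, MYCN and proliferation in the members' ratios was not tested.

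Day of harvest and line cannot be told apart, since each line was taken on 1 day. In limma's test of the day 5 minus day 4 difference in ratio, no gene passed an adjusted p of 0.05 (0%). At an unadjusted p of 0.05, 4 members had lower ratios on day 5, namely LDHA, PFKP, PGAM1 and PKM (all genes 2.74%), and CA9 had a higher one (all genes 2.76%). All 5 had an adjusted p of 0.826. GAPDH, ENO1, PKM, EPAS1 and ADM were below 0 in both day 5 lines and above 0 in both day 4 lines (5 of 37, all genes 6.37%), and CA9 was the opposite (1 of 37, all genes 6.22%). These counts go by sign alone. EPAS1 was below 1 FPKM in both arms of the day 5 lines, and the ratio of ENO1 in NCI-H1048 was 0.0035.

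The infected control was set beside the uninfected library of its own line. The tables may have been normalized separately, infection and culture time differ, and there is 1 column of each, so the values are a description. The members' median log2 difference of sgNeg minus parental was 0.86 for NCI-H526 and 0.60 for NCI-H1048, but 0.04 for NCI-H211 and -0.20 for COR-L311, where the medians of all genes were 0.02 to 0.10. In NCI-H526, 12 members were at least 2-fold higher in sgNeg (all genes 2.67%), and in NCI-H1048 9 were (all genes 3.23%). The counts were 3 in NCI-H211 (all genes 3.22%) and 0 in COR-L311 (all genes 4.04%). In the other direction they were 1, 0, 2 and 1 in NCI-H526, NCI-H1048, NCI-H211 and COR-L311 (all genes 2.34%, 1.05%, 1.75% and 2.24%), the members being VEGFA in NCI-H526 and GPI in the latter pair, with PFKP in NCI-H211.

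HK2 in NCI-H526 was 0.575 FPKM in the parental library, 17.3 in sgNeg and 8.41 in sgPOU2F3. LDHA was 117, 569 and 360 FPKM in the same order, BNIP3 22.1, 117.4 and 70.5, SLC2A1 20.7, 84.2 and 60.8, and SLC16A3 2.35, 19.4 and 10.6. For these 5 genes, given as examples, the sgPOU2F3 column thus lay between the parental library and the control. The examples here and in NCI-H1048 were taken from members at least 2-fold higher in sgNeg than in the parental library. Both comparisons share the same sgNeg column, so a high value in that column alone would give this order. Whether knockout moved these genes toward the uninfected level was not tested. NDRG1 rose further, at 3.06, 8.69 and 22.8 FPKM. VEGFA was instead highest in the uninfected cells, at 127.9 FPKM in the parental library and 60.6 and 57.9 in the infected cells. In NCI-H1048, BNIP3 was 22.2, 85.4 and 58.4 FPKM, PFKFB4 4.61, 16.5 and 10.0, and ALDOC 11.4, 43.3 and 35.8, again with sgPOU2F3 between the parental library and sgNeg. The enzymes' share of summed FPKM was 0.952% in parental NCI-H526 and 1.79% in its sgNeg column, whereas in COR-L311 it was 1.26% and 0.917%.

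**Figure D3:**
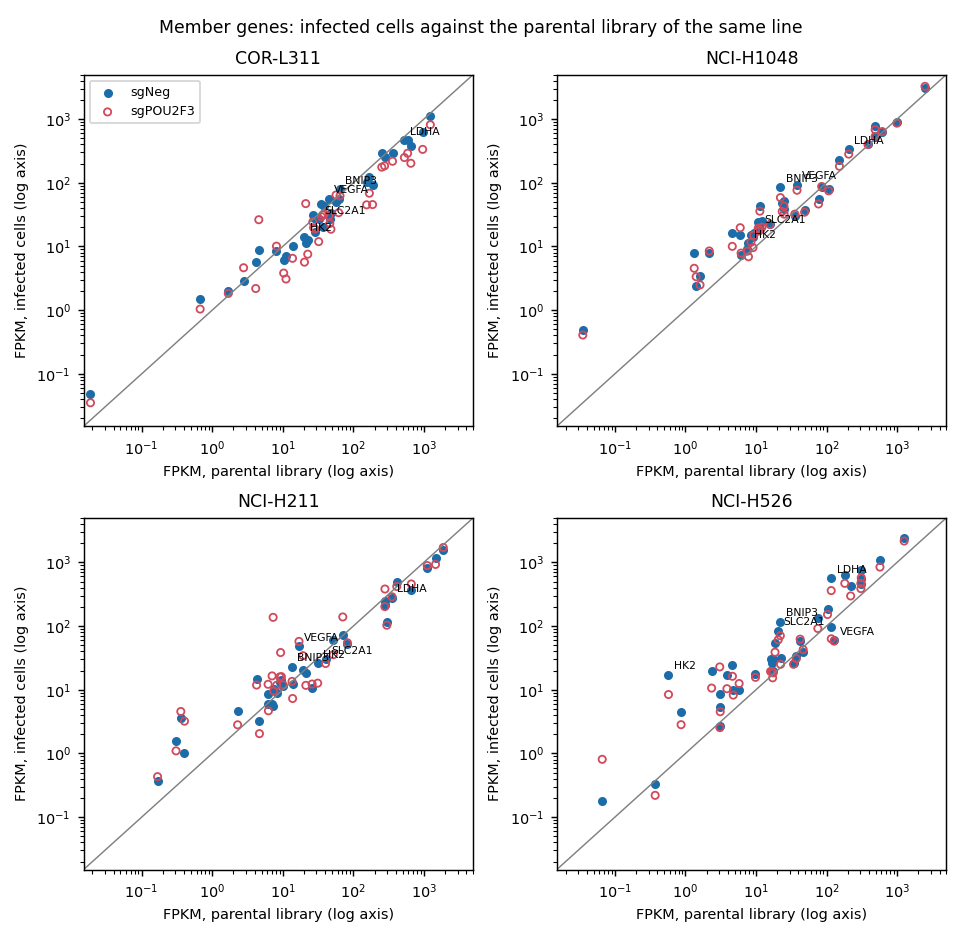
FPKM of the 37 members tested in infected cells (vertical log axis, sgNeg filled and sgPOU2F3 open) against the uninfected library of the same line (horizontal log axis), with the grey line marking equal values and 5 members named beside their sgNeg point. Of the 37 sgNeg points, 30 in NCI-H526 and 32 in NCI-H1048 lie above the grey line, against 14 in COR-L311.

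The parental libraries show how these genes differ among growing, uninfected lines. The 4 lines used for knockout did not differ from the other 10 in any member at limma's adjusted p of 0.05, where 33 of 13226 genes did (0.25%), and the ranges overlapped for every member tested (all genes 0.65% without overlap). At an unadjusted p of 0.05, EGLN3 and ANKRD37 differed (5.41% of 37, all genes 8.66%). EGLN3 ran from 11.2 to 75.3 FPKM in the 4 lines with a median of 43.6, and from 0.0895 to 61.8 with a median of 7.60 in the 10 others. Of those others, DMS79 alone was above 12.2 FPKM (log2 difference 2.32 ± 0.79, SE; limma p = 0.0096, adjusted p = 0.347). ANKRD37 ran from 0.168 to 4.13 FPKM, median 1.24, against 0.890 to 13.8, median 6.92 (log2 difference -1.47 ± 0.56, SE; limma adjusted p = 0.459). The members' median difference was -0.19. EPAS1 was not tested, since it reached 1 FPKM in 3 of 14 libraries.

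Most enzymes differed by a few times among the parental lines. From the lowest to the highest line the enzymes differed by 2.70 times (PFKL) to 330 times (ALDOC), with a median of 5.05. ALDOC was 154 FPKM in COR-L311 and 52.0 in NCI-H128, and below 1.1 in DMS114, DMS79 and NCI-H524. HK2 ran from 0.575 FPKM in NCI-H526 through a median of 16.8 to 39.6 in DMS79, and was also below 1 FPKM in NCI-H69 and NCI-H889. The other lines lay at 6.98 FPKM or above, so these 3 lines stood apart. GAPDH ran from 925 FPKM in NCI-H889 to 2719 in NCI-H128. The enzymes' share of summed FPKM was lowest in NCI-H889 (0.826%) and highest in NCI-H128 (2.16%).

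NCI-H128 was most often among the lines with the highest levels. It was among the 3 highest of the 14 lines for 24 of 38 members and DMS79 for 18, followed by COR-L311 with 13 and NCI-H510 with 12. Ranks were not counted over all genes, so these counts and those below describe the members only and do not set them apart from other genes. Of the 11 hypoxia-response members, DMS79 was among the 3 highest for 8, as was NCI-H128. For the 16 enzymes DMS79 was among the 3 highest for 3 and among the 3 lowest for 3. NCI-H69 was among the 3 lowest for 16 members and NCI-H889 for 14. CA9, at most 4.57 FPKM in the other lines, was 65.7 FPKM in DMS79 and 14.5 in NCI-H128, and is listed at 0 in DMS114 and NCI-H82. VEGFA was 180 and 169 FPKM in DMS79 and NCI-H128, next to 127.9 in NCI-H526 and 117 in NCI-H524, with a median of 41.6 over 14 lines. NDRG1 ran from 1.41 FPKM in NCI-H446 to 155 in DMS79, with 110 in NCI-H510 and 70.3 in NCI-H146. BNIP3 ran from 11.7 FPKM in NCI-H446 to 105 in NCI-H128. SLC2A1 ran from 11.1 FPKM in NCI-H1048 to 194 in NCI-H510, followed by 94.4 in NCI-H128. PDK1 was 40.3 FPKM in NCI-H128 and 1.03 in NCI-H69, and PFKFB4 15.2 and 0.887 in the same lines. ADM was highest in DMS114 (30.1 FPKM), and HIF1A differed by 3.08 times in all, from 29.02 FPKM in NCI-H82 to 89.2 in DMS79. With 1 library per line, none of these differences between single lines has an error, and the medium of NCI-H128 differed in serum.

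**Figure D4:**
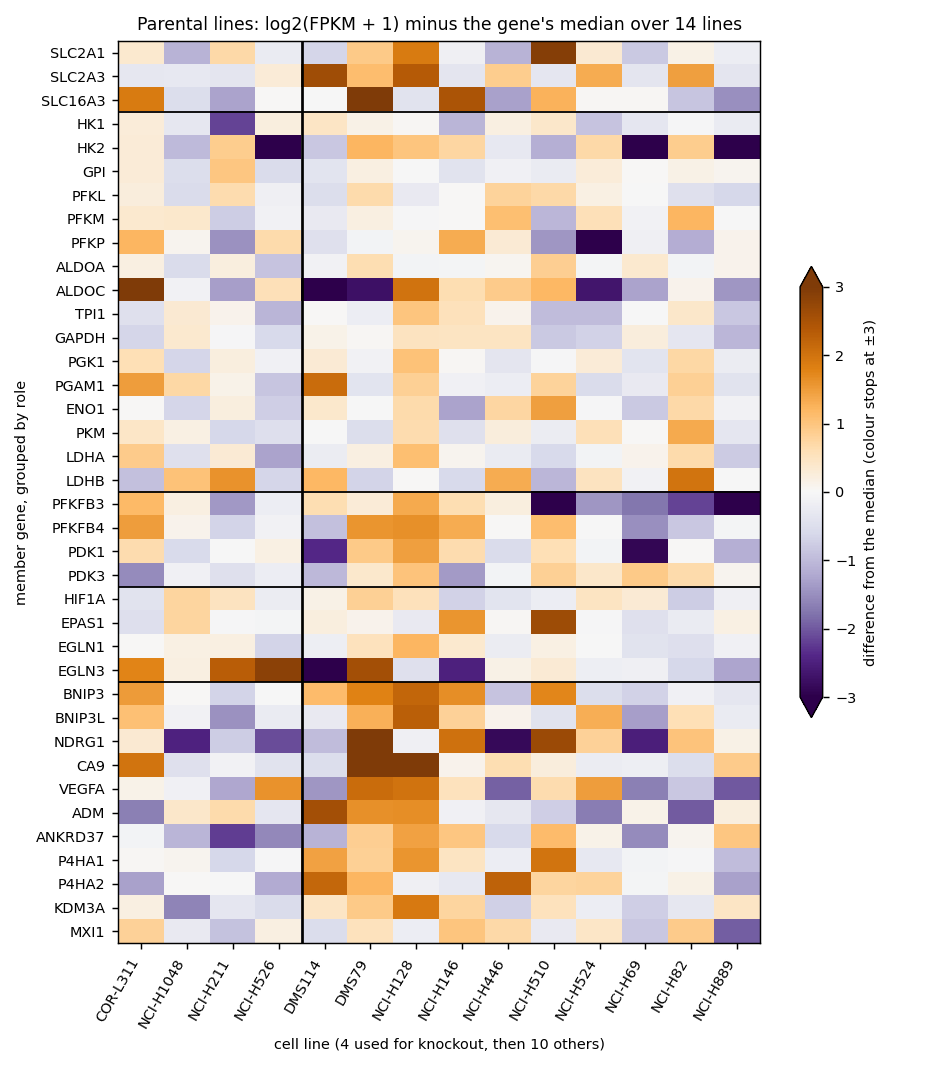
Level of each of the 38 members (rows, grouped by role) in the 14 parental libraries (columns, the 4 lines used for knockout left of the black line), as log2(FPKM + 1) minus the gene's median over the lines, orange for higher and purple for lower. NCI-H128 and DMS79 are mostly orange in the lower rows, and NCI-H69 and NCI-H889 mostly purple.

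Across the parental lines, levels of the hypoxia-response members tended to go together. The median Spearman rho between pairs was 0.32 for the 11 hypoxia-response members (55 pairs), 0.17 for the 16 enzymes (120 pairs) and 0.00 over all genes tested. With the 4 flux regulators added, the median was 0.37 (105 pairs). The highest pair was BNIP3 with P4HA1 (0.864), followed by TPI1 with GAPDH (0.815) and by PFKFB4 with PDK1 and PDK1 with VEGFA (both 0.793). The lowest was SLC16A3 with LDHB (-0.741). These are descriptions over 14 libraries that share depth and composition within a library, and the pairs of a group share genes.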

How the data were processed

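RNA-seq of polyA RNA (TruSeq v2) was deposited as 5 tables of FPKM, made by the authors with TopHat2, Cufflinks and Cuffdiff on hg19, per the submitters' processing notes. Versions and the treatment of shared fragments are not given in the sources used here. The labels call the parental table RPKM and its own name FPKM. The authors combined the 2 guides of each line in 1 deposited FPKM column, so the fit planned on separate guides was not run. Samples were grouped by their labels, which name no separate cultures, so p-values measure the spread between lines. Depth was estimated from the steps between low values. No 2 of the 22 columns were identical.

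Tests used limma 3.58.1 in R 4.3.3 on log2(FPKM + 1), with a variance trend, for genes at 1 FPKM or more in at least 4 columns, and Benjamini-Hochberg adjustment over all genes tested. Fold changes are on that scale and understate low genes. The knockout fit had terms for line and arm (3 residual degrees of freedom), the test of day had 2, and the parental fit compared 4 lines with 10. Scripts were tested on simulated data. The members, lists and markers were chosen with earlier results of these data known. Members given with every value were those with 1 sign in all lines and a mean of at least 0.5 in size, the 3 with the largest ratio of a single line in each direction, the HIF subunits and those at an unadjusted p of 0.05 in the parental comparison.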

Additional observations from a re-analysis of the deposited data

Results flagged for a closer look

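In each group of 4 to 10 values, a value was singled out where its gap to the nearest other exceeded Dixon's 95% critical value. This gave 6 of 111 groups, and chance gives about 1 in 20. After knockout, ADM in NCI-H211 had a log2 ratio of 4.38, where the other 3 lines had -0.31 to 0.37. PFKL in COR-L311 had a log2 ratio of -0.68, where the others had 0.09 to 0.12. Among the 4 parental lines used for knockout, on the log2(FPKM + 1) scale, CA9 was 2.48 in COR-L311 against 0.05 to 0.39, SLC2A3 was 0.65 in NCI-H526 against 0 to 0.07, and P4HA1 was 2.85 in NCI-H211 against 3.44 to 3.56. Among the 10 other lines, PGAM1 was 5.45 in DMS114 against 2.80 to 4.18.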

How the results depend on the processing

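No paired analysis was possible because the columns carry no replicate number and hold both guides together, apart from the pairing of arms within a line, which the fit already has as its term for line. Of 400 values under the alternatives, 378 kept their direction and their side of the threshold. Some of these could not change. The median within a line stays the same when another line is left out. A gene's mean ratio stays the same with another filter or with no variance trend. The count is therefore no measure of how stable the results are. The 2 genes past the threshold in the knockout comparison became 0 with no filter, with no variance trend and with a pseudocount of 0.1, 1 with quantile normalization, and 0 to 0 with each line left out. Members higher in every line went from 2 to 1 with quantile normalization and were 2 to 3 with a line left out. Members lower in every line, 14, were 14 to 23 with a line left out, the latter without NCI-H211. Members lower at an unadjusted p of 0.05, 14, were 8 without COR-L311 or NCI-H526 and 18 without NCI-H211. For these member counts with a line left out, the shares over all genes were not computed. The members' median ratio of -0.27 was -0.16 without COR-L311 and -0.36 without NCI-H211. The 33 genes of the parental comparison were 21 without COR-L311 and 50 without NCI-H1048. The mean ratio of ADM turned to -0.047 without NCI-H211. In the parental comparison, ADM turned to 0.11 without COR-L311, HIF1A to -0.063 without NCI-H1048, and HK2 to 0.49 without NCI-H526. PFKFB4, at -0.04, turned to 0.12 with NCI-H128 left out, 0.014 with a pseudocount of 0.1, 0.26 without NCI-H211 and 0.067 without NCI-H526. The cause was not tested, other than fewer samples. No member passed the adjusted threshold under any alternative run. At the lowest sgNeg depth, 1 FPKM on a transcript of 2 kb is about 19.0 fragments, so members below that, such as EPAS1, are imprecise.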
